A study of Mus musculus with 8 samples.

Results

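Rod photoreceptors turn light into an electrical signal through a chain of proteins in the outer segment, and 9 genes of that chain are described here in eyecups of Bbs8 knockout mice: Gnat1, Gngt1, Pde6a, Pde6b, Pde6g, Cnga1, Cngb1, Sag and Rcvrn. They were chosen by symbol, each matched 1 row, and together they made up 9 of the 31053 gene rows of every library. The libraries were QuantSeq 3′ mRNA libraries, which read the 3′ end of polyadenylated transcripts, from retinal pigment epithelium (RPE) eyecups of untreated mice labelled C57/Bl6 at postnatal day 11 (P11). There were 4 libraries of wild-type littermates (Bbs8+/+) and 4 of mice lacking Bbs8 (Bbs8-/-), whose symbol in the annotation is Ttc8 and which encodes a subunit of the BBSome, a complex for transport in cilia. Each library came from a different animal. Bbs8 was deleted in the whole animal, rods included. Cornea, lens, retina and optic nerve had been taken away from the eyecups before RNA was extracted. The question asked was whether Gnat1, which was already known to be lower in these knockout libraries, moved together with the other rod genes.

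In a rod, light activates the visual pigment, which switches on the G protein transducin. The activated alpha subunit of transducin then relieves the inhibition of a phosphodiesterase, cyclic GMP falls, and a cation channel held open by cyclic GMP closes. Arrestin and recoverin take part in the shut-off of the signal and in its adjustment by calcium. The outer segment that houses these proteins is a modified primary cilium, and its shed tips are taken up by the RPE.

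Total gene counts ran from 1636725 to 2884983 per library, so that 3 counts, taken as the smallest level the depth could show, stood for a level of 1.04 to 1.83 CPM. Levels below are CPM, counts scaled to the library size, after TMM normalization. One 3′ tag is read per transcript end and the values are not scaled to length, so an order of levels between genes, where one is given, is an order of tags and not of transcript abundance per length. Ttc8 fell in Bbs8-/- (log2 fold change -1.95, SE 0.317; edgeR quasi-likelihood FDR 2.75e-06). It was highest among the knockouts in replicate 1, at 9.72 CPM against 2.30 to 4.21 CPM in the others and at least 14.7 CPM in Bbs8+/+, and without that library the change was -2.44. Reads outside annotated genes were 42.1% to 43.4% of the uniquely aligned in Bbs8+/+ and 44.1% to 44.4% in Bbs8-/-, and mitochondrial genes took 3.59% to 3.82% and 3.19% to 3.33% of gene counts, so both split by genotype, and their part in the results below was not tested. RPE genes were abundant in every library, with Rpe65, the isomerase of the visual cycle, at a mean of 2002 CPM (SD 98.5, n = 4) in Bbs8+/+ and 1827 CPM (SD 81.7, n = 4) in Bbs8-/-, whereas Best1, an RPE channel gene, stood at 0 to 10 counts. The 9 rod genes added up to 245 to 350 CPM, and none of them was at 0 in any library. Their lowest count was 12, in Gngt1, and their highest was 431, in Sag.

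Gnat1 encodes the alpha subunit of rod transducin and Gnat2 that of cone transducin. The last 60 coding bases of both genes, stop codon included, are shown as a comparison of the close copies. Capitals mark the 12 positions at which the copies differ, and the other 48 are identical. The Gnat1 stretch lies in exon 8 on the minus strand (mm10, chr9:107675888-107675947), and the Gnat2 stretch in exon 9 on the plus strand (chr3:108100744-108100803). The annotated Gnat1 gene runs on past this stretch to 107674474, so reads of the 3′ end need not cover the marked positions.
Gnat1: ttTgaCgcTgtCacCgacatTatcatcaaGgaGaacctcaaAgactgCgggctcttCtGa
Gnat2: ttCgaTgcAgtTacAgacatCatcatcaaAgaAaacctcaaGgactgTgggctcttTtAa
In the last 500 bases of each rod transcript, where these libraries are read, 401 windows of 100 bases, the read length, were looked up in all other annotated transcripts. None of the 401 windows of any of the 9 genes occurred in another gene.

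The G protein was taken first. Gnat1 (ENSMUSG00000034837, chromosome 9, 107674474 to 107679712, minus strand, mm10) stood at 39.3, 36.2, 61.3 and 45.1 CPM in the Bbs8+/+ libraries, given in the order of replicates 1 to 4 here and below, and at 31.0, 30.3, 19.8 and 20.1 CPM in the Bbs8-/- libraries. Every knockout library lay below every wild-type library, with replicate 3 of Bbs8+/+ the highest and replicates 3 and 4 of Bbs8-/- the lowest. Gnat1 was down-regulated to 0.553 of the wild-type level, which is -0.86 on the log2 scale (SE 0.177, 95% interval -1.21 to -0.51, edgeR FDR 0.000502). The fall rested on 91 to 131 counts per Bbs8+/+ library and 43 to 58 per Bbs8-/- library. Without Bbs8+/+ replicate 3 it was -0.69 (edgeR FDR 0.025). Gngt1 (chromosome 6, 3993792 to 3997436), which encodes the gamma subunit that holds transducin at the membrane, stood at 8.63, 11.03, 8.89 and 10.8 CPM in Bbs8+/+ and at 9.11, 7.32, 10.6 and 5.61 CPM in Bbs8-/-. These values overlapped. Its log2 fold change was -0.28 with an interval of -0.92 to 0.36 (edgeR FDR 0.802), an interval wide enough to hold the change of Gnat1. In bulk eyecups, fewer rods and less RNA per rod cannot be told apart, for Gnat1 or for any other gene named here.

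The 3 subunits of the rod phosphodiesterase, the enzyme that transducin acts on, were not called in either direction. Pde6a (chromosome 18, 61220315 to 61289924), a catalytic subunit, had 26.8, 20.1, 18.7 and 17.5 CPM in Bbs8+/+ and 20.05, 20.9, 20.7 and 14.97 CPM in Bbs8-/-. The genotypes overlapped, with Bbs8-/- replicates 1 to 3 among or above Bbs8+/+ replicates 2 to 4, and only Bbs8+/+ replicate 1 and Bbs8-/- replicate 4 stood outside. Pde6b (chromosome 5, 108388391 to 108432397), the partner catalytic subunit, had 24.6, 27.96, 27.1 and 29.02 CPM in Bbs8+/+ and 24.3, 26.1, 28.5 and 20.1 CPM in Bbs8-/-. Only Bbs8-/- replicates 1 and 4 lay below all wild-type libraries. Pde6g (chromosome 11, 120447605 to 120453500), whose product is the inhibitory subunit that transducin displaces, had 37.1, 34.7, 34.6 and 45.1 CPM in Bbs8+/+ and 35.8, 31.9, 39.04 and 55.2 CPM in Bbs8-/-. Here the highest library was Bbs8-/- replicate 4, one of the pair with the least Gnat1. The log2 fold changes were -0.12 for Pde6a (interval -0.55 to 0.32, edgeR FDR 0.895), -0.14 for Pde6b (interval -0.52 to 0.25, edgeR FDR 0.843) and 0.10 for Pde6g (interval -0.22 to 0.42, edgeR FDR 0.869). All 3 intervals lay above the -0.86 of Gnat1, but the interval of Gnat1 itself, -1.21 to -0.51, overlapped those of Pde6a and Pde6b.

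The cyclic GMP-gated channel gave no call either. Cnga1 (chromosome 5, 72603696 to 72644275), the pore-forming alpha subunit, had 14.2, 16.1, 17.3 and 19.9 CPM in Bbs8+/+ and 13.97, 14.6, 13.8 and 14.03 CPM in Bbs8-/-. The knockout libraries were tightly grouped at the lower edge of the wild-type range and overlapped it only through Bbs8-/- replicate 2 and Bbs8+/+ replicate 1. Cngb1 (chromosome 8, 95239045 to 95306585), the beta subunit, had 13.4, 14.6, 14.97 and 12.2 CPM in Bbs8+/+ and 19.4, 16.2, 12.9 and 12.6 CPM in Bbs8-/-. Replicates 1 and 2 of Bbs8-/- exceeded all wild-type libraries while replicates 3 and 4 fell within their range. The log2 fold changes were -0.27 for Cnga1 (interval -0.75 to 0.22, edgeR FDR 0.728) and 0.14 for Cngb1 (interval -0.37 to 0.65, edgeR FDR 0.891).

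The genes of shut-off and calcium feedback were Sag and Rcvrn. Sag (chromosome 1, 87803680 to 87845158) encodes rod arrestin, which binds the activated pigment and ends its signalling, and it was the most deeply counted of the 9, with 160 to 431 counts per library. It stood at 128, 131, 128 and 151 CPM in Bbs8+/+ and at 97.2, 127, 126 and 81.4 CPM in Bbs8-/-. The groups did not overlap, but Bbs8-/- replicates 2 and 3 lay just under the lowest wild-type library and only replicates 1 and 4 were well below it. Its log2 fold change of -0.32 (interval -0.52 to -0.12) did not pass the threshold (unadjusted edgeR p 0.00196, edgeR FDR 0.0705). The call depended on single libraries: without Bbs8-/- replicate 2 the edgeR FDR was 0.0258, without replicate 3 it was 0.0263, and without replicate 4 the log2 fold change was -0.20 (edgeR FDR 0.481). Rcvrn (chromosome 11, 67695326 to 67703333) encodes recoverin, a calcium sensor that restrains the pigment's kinase. It had 14.7, 17.7, 23.9 and 19.2 CPM in Bbs8+/+ and 17.6, 19.4, 16.1 and 20.6 CPM in Bbs8-/-, with all knockout libraries inside the wild-type range. Its log2 fold change was -0.03 (interval -0.48 to 0.42, edgeR FDR 0.976).

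Among the 9 rod genes, 1 was therefore down-regulated and 0 were up-regulated at edgeR FDR 0.05. Of all 13813 genes tested, 2.24% were called in either direction and 1.14% were called lower. DESeq2 also called Gnat1 alone of the 9 (DESeq2 FDR 0.00532). An unadjusted edgeR p under 0.05 was found for 2 of the 9, Gnat1 and Sag, and for 13% of all genes tested. The genotypes did not overlap for the same 2 genes, and 7.38% of all genes tested showed no overlap. The fitted change was negative for 7 genes and positive for 2, and its median was -0.14, beside 0.00 for all genes tested. All 9 passed the filter on low counts, and each was above 1 CPM in all 8 libraries. Annotated neighbours overlap 3 of them: the pseudogene Rps2-ps10 lies opposite Pde6a, the coding gene Glp2r opposite Rcvrn, and the pseudogene Gm5297 on the same strand as Cnga1. Because the strand setting of the counting is not given in the sources used here, reads of the opposite-strand partners cannot be told apart from those of Pde6a and Rcvrn.

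**Figure D1:**
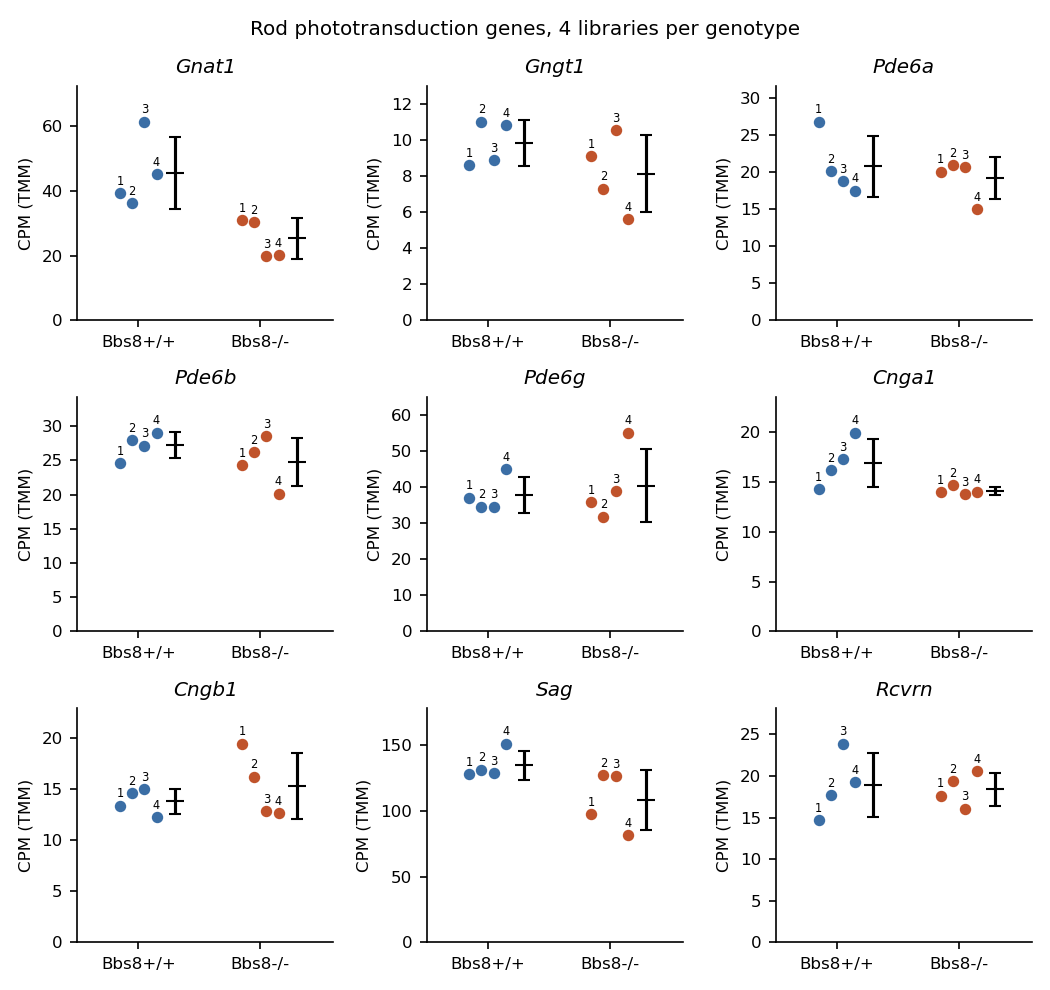
Level of each of the 9 rod genes in CPM after TMM normalization (vertical axes, starting at 0) in the 4 Bbs8+/+ (blue) and 4 Bbs8-/- (orange) libraries, with the replicate number above each point and black bars for the mean ± SD. The Bbs8-/- points lie between 19.8 and 31.0 CPM for Gnat1, below every Bbs8+/+ point, while the genotypes overlap in the other panels except Sag, where the gap is from 127.1 to 127.7 CPM.

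The summed level was described with and without Gnat1. Added up over the 9 genes, Bbs8+/+ libraries held 306, 310, 335 and 350 CPM and Bbs8-/- libraries 268, 294, 288 and 245 CPM. The means were 325 ± 20.7 and 274 ± 22.2 CPM (SD, n = 4 each), a ratio of 0.842 without overlap. Without Gnat1 the sums were 280 ± 16.9 and 248 ± 20.8 CPM, a ratio of 0.888, and their ranges overlapped only just, with 267.1 CPM in the lowest Bbs8+/+ library and 267.8 CPM in the highest Bbs8-/- library. Leaving out Sag too gave 145 ± 6.26 CPM in Bbs8+/+ and 140 ± 2.82 CPM in Bbs8-/-, but since these 2 genes had the lowest fitted changes, a remainder with a smaller difference follows from their choice. No test was made of these sums, since the genes were chosen with results known.

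Within a library, the share of Gnat1 in the counts of the 9 genes does not depend on the scaling of the library. That share was 12.8%, 11.7%, 18.3% and 12.9% in Bbs8+/+ and 11.5%, 10.3%, 6.87% and 8.22% in Bbs8-/-. The exact (Clopper-Pearson) 95% interval of the lowest wild-type share was 9.54% to 14.2% and that of the highest knockout share 8.71% to 14.9%, so neighbouring libraries of the 2 genotypes could not be told apart at this depth. Replicate 3 of Bbs8+/+ (15.5% to 21.3%) and replicate 3 of Bbs8-/- (5.02% to 9.14%) marked the extremes. The mean share of the wild-type libraries was 13.9% ± 2.96 and that of the knockout libraries 9.24% ± 2.09 (SD, n = 4). The intervals cover counting error only. The share of Pde6g in the knockouts ran from 10.9% to 22.6%, the latter in replicate 4, where Sag took its lowest share of 33.3%.

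**Figure D2:**
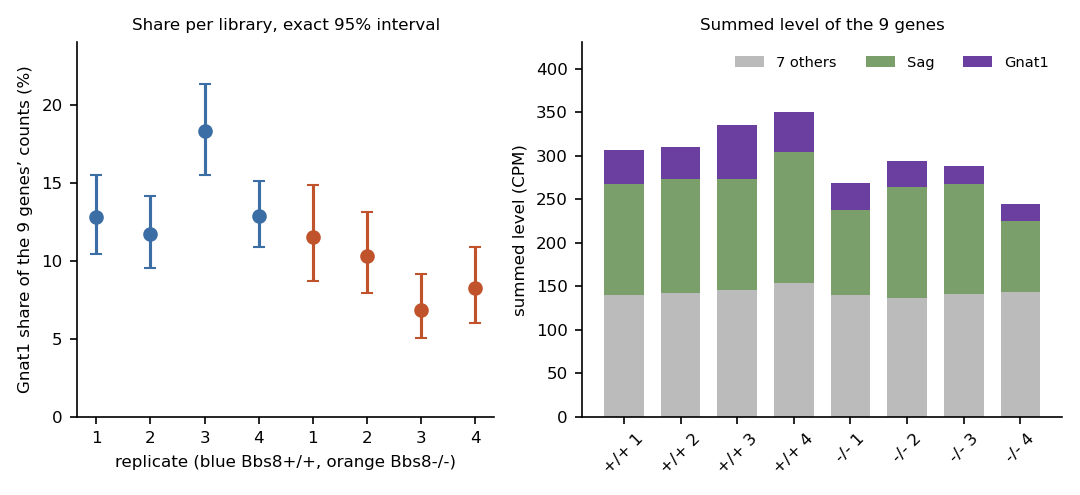
Left, Gnat1 counts as a percentage of the counts of the 9 rod genes in each library, with exact 95% binomial intervals, for each replicate of Bbs8+/+ (blue) and Bbs8-/- (orange). Right, the summed level of the 9 genes in CPM per library, split into Gnat1, Sag and the 7 others, of which the last stays between 136 and 154 CPM in all libraries.

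Whether Gnat1 moved with each of the others was tested on the ratio itself, log2((Gnat1 count + 0.5)/(other count + 0.5)) per library, by 2-sided exact permutation tests of 4 against 4 libraries, adjusted over 8 pairs by the Benjamini-Hochberg method. The smallest p that this design allows is 0.0286. All 8 tests share the Gnat1 counts and are not independent, and since Gnat1 was taken as the reference with its fall in these libraries known, their p-values in part restate that fall. The ratio to Cngb1 was 1.30 to 2.02 on the log2 scale in Bbs8+/+ and 0.61 to 0.89 in Bbs8-/-, without overlap. Its mean was lower by 0.97 in Bbs8-/- (difference -0.97). For Pde6g the difference was -0.92, for Rcvrn -0.82, for Pde6b -0.70 and for Cnga1 -0.60, again without overlap. Each of these 5 pairs reached the smallest exact p of 0.0286, adjusted exact p = 0.0457. The ratio to Pde6a differed by -0.74 with overlapping libraries (exact p = 0.0571, adjusted 0.0762). The ratio to Gngt1 differed by -0.55 (exact p = 0.171, adjusted 0.171) and that to Sag by -0.50 (exact p = 0.114, adjusted 0.131). By this test the ratio to Gnat1 was called for 5 of the 8 genes, and for Gngt1, Pde6a and Sag a difference was not shown. In Sag the ratio ran from -1.85 to -1.06 in Bbs8+/+ and from -2.66 to -1.64 in Bbs8-/-. The 5 calls held without Bbs8-/- replicate 1, but each was lost on leaving out any other library, with differences of -1.12 to -0.46 and adjusted exact p between 0.0571 and 0.229. All 5 were also lost on thinning the counts to the smallest library total (adjusted exact p 0.0762 to 0.163), where the difference to Cnga1 was -0.38. Without Bbs8-/- replicate 1 the difference to Sag was -0.66 (adjusted exact p = 0.0381).

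**Figure D3:**
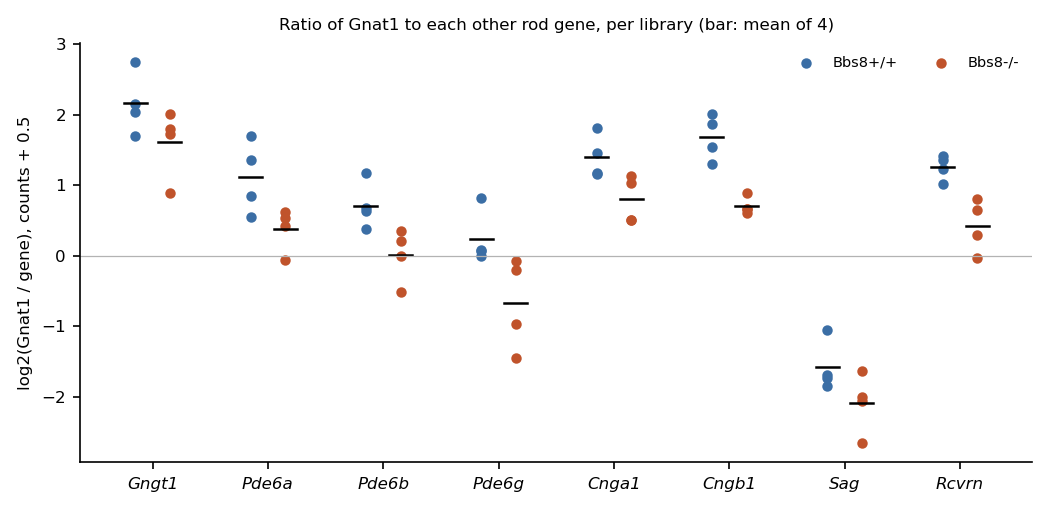
Ratio of Gnat1 to each of the 8 other rod genes per library (vertical axis, log2 of counts + 0.5), for Bbs8+/+ (blue) and Bbs8-/- (orange), with black bars for the mean of 4 libraries. The bar is lower in Bbs8-/- for all 8 genes, by 0.50 to 0.97, and the points do not overlap for Pde6b, Pde6g, Cnga1, Cngb1 and Rcvrn.

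Likeness across the 8 libraries was described by Pearson's r of log2(CPM + 1), with no test. Gnat1 was most like Cnga1 among the 9 (0.72), followed by Sag (0.58), and least like Pde6g (-0.41). Over all 36 pairs the median was 0.13, with a range of -0.71 to 0.91, and over the 28 pairs without Gnat1 it was 0.02. The points share library depth, and counts of 12 to 62 for several genes limit these values. Outside the list, the 5 genes most like Gnat1 among 9034 with a mean of at least 10 CPM were Notch3 (0.97), Oxct1 (0.97), Cycs (0.93), Col4a1 (0.93) and Kpna4 (0.92). Of these, Notch3, Oxct1 and Col4a1 were down-regulated (edgeR FDR 0.0324, 0.00284 and 0.0366), where 1.14% of all genes tested were called lower. Such falls follow in part from the choice, since Gnat1 and the summed rod level were themselves lower in Bbs8-/-. Oxct1, for example, had 192 ± 11.1 CPM in Bbs8+/+ and 149 ± 14.2 CPM in Bbs8-/-, while Cycs was at 21.2 ± 1.32 and 17.6 ± 1.82 CPM and did not pass the threshold (edgeR FDR 0.66). The genes most like the summed rod level were Klf2 (0.97), Me1 (0.96), Cyp2j6 (0.95), Nrk (0.95) and Elovl7 (0.94), of which Me1, Nrk and Elovl7 were down-regulated (edgeR FDR 0.0141, 0.0122 and 0.0461). No other gene of the rod pathway was in either set of 5.

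Promoters of 2 members, neither of them called, are shown as examples with 1 and with 2 matches to a photoreceptor motif, as far as 120 bases upstream, from RefSeq (GRCm38.p6): Sag on the plus strand (chr1:87803560-87803679) and Cngb1 on the minus strand (chr8:95306586-95306705), both written 5′ to 3′ towards the start. Capitals mark TAATCC on either strand, which is the core recognised by Crx and Otx2, homeobox factors of photoreceptors and, for Otx2, of the RPE.
Sag: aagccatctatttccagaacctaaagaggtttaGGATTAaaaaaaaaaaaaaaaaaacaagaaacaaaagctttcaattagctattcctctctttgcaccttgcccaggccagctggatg
Cngb1: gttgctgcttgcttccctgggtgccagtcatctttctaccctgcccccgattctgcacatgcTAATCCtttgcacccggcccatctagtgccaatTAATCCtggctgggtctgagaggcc
The match in Sag began 87 bases before the start and those in Cngb1 began 58 and 25 bases before it. Only this motif was searched. Of the 5 rod genes with an entry in the table, Sag, Cngb1, Gngt1 and Cnga1 held it within 250 bases before the start and Pde6b did not, while 2054 of all 32851 promoter windows of that length did (6.25%). Otx2 itself was up-regulated, at 555 ± 11.6 CPM in Bbs8+/+ against 772 ± 21.98 CPM in Bbs8-/- (log2 fold change 0.48, edgeR FDR 6.08e-12), and Crx stood at 10.98 ± 4.34 and 8.75 ± 2.76 CPM (edgeR FDR 0.698).

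A further 16 genes of the rod pathway, written from general knowledge, were examined next, and 15 of them passed the filter on low counts. Of the 15, 1 was up-regulated and 0 were down-regulated (1.1% of all genes tested were called higher), the median log2 fold change was -0.13, and 3 showed no overlap, as did 7.38% of all genes tested. The gene that rose was Unc119, whose product binds the lipid tail of transducin alpha and helps to carry it through the rod. It stood at 81.99, 81.1, 97.8 and 82.2 CPM in Bbs8+/+ and at 115, 115, 98.8 and 117 CPM in Bbs8-/-. All knockout libraries were above all wild-type libraries, but replicates 3 of both genotypes lay side by side. On the log2 scale the rise was 0.38 (SE 0.105, edgeR FDR 0.0263, DESeq2 FDR 0.0381). Leaving out any library other than the replicates 3 ended this call, with edgeR FDR between 0.0733 and 0.113. Unc119 is also made outside photoreceptors, so its transcripts here cannot be assigned to rods.

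The transducin beta subunit gene Gnb1, which many cells use, stood at 189 ± 12.5 and 199 ± 14.5 CPM (log2 fold change 0.07, edgeR FDR 0.797). Of the complex that speeds transducin's own shut-off, Rgs9 gave 0.08, Gnb5 -0.22 and the anchor Rgs9bp -0.62 (edgeR FDR 0.872, 0.66 and 0.644). Gnb5 did not overlap between genotypes, with 32.4 to 35.8 CPM in Bbs8+/+ and 25.7 to 32.2 CPM in Bbs8-/-. The pigment's kinase Grk1 had 10.8, 12.2, 12.6 and 11.2 CPM in Bbs8+/+ and 9.11, 4.18, 10.1 and 8.42 CPM in Bbs8-/-. Its libraries did not overlap, but the log2 fold change of -0.55 with an interval of -1.17 to 0.07 did not pass the threshold (edgeR FDR 0.476). Grk1 was counted 8 to 32 times per library.

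The guanylate cyclases that restore cyclic GMP gave -0.13 for Gucy2e and -0.31 for Gucy2f (edgeR FDR 0.924 and 0.635). Their calcium-dependent activator Guca1a was at 1 to 15 counts and gave -0.99 with an interval of -2.32 to 0.34 (edgeR FDR 0.572), and Guca1b, at 0 to 8 counts, was not tested. Slc24a1, the exchanger that carries calcium out of the rod, stood at 382 ± 16.6 and 396 ± 39.1 CPM (0.05, edgeR FDR 0.815). This was above Sag (134 ± 10.9 and 108 ± 22.5 CPM), and bulk eyecups do not show which cells the Slc24a1 transcripts came from. Phosducin, the product of Pdc, binds the beta-gamma subunits of transducin, and Pdc stood at 85.8 ± 13.3 and 83.6 ± 10.5 CPM (-0.03, edgeR FDR 0.946). Pde6d, which ferries lipid-tailed proteins such as the phosphodiesterase, gave -0.35 (edgeR FDR 0.633). Kcnv2, a potassium channel subunit of photoreceptors, gave 0.31 (edgeR FDR 0.888).

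**Figure D4:**
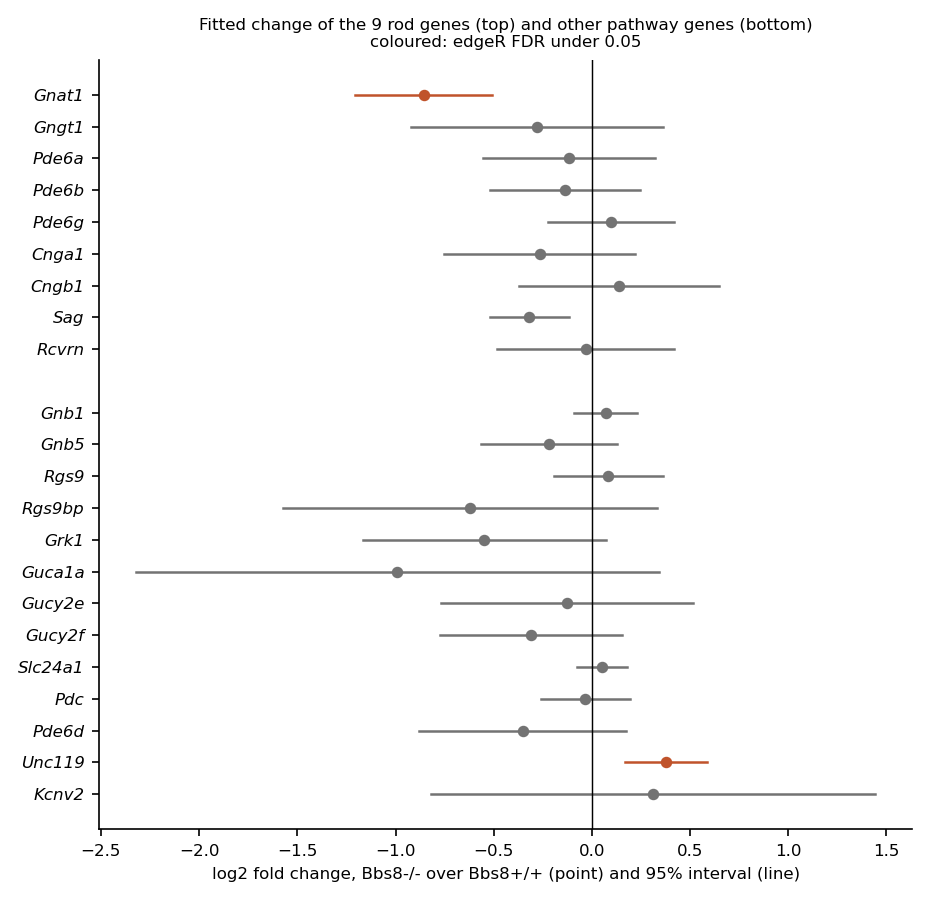
Fitted log2 fold change of Bbs8-/- over Bbs8+/+ (points) with 95% intervals (lines) for the 9 rod genes above and for the other tested genes of the rod pathway named in the text below. The 2 coloured genes, Gnat1 at -0.86 and Unc119 at 0.38, are those with an edgeR FDR under 0.05.

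Genes of photoreceptors outside the rod cascade were set beside it as a description, and their difference from Gnat1 was not tested. Of 20 listed, 19 were tested, 1 was up-regulated and 0 were down-regulated, where 1.1% of all genes tested were called higher and 1.14% lower. The fitted change was negative for 10 of the 19 and positive for 9, with a median of -0.01. Of the 19, 6 had an unadjusted edgeR p under 0.05, as did 13% of all genes tested. The summed level of the 20 was 442 to 477 CPM in Bbs8+/+ and 468 to 531 CPM in Bbs8-/-, and these ranges overlapped. Nr2e3, a nuclear receptor that promotes rod and represses cone genes, was the gene that rose, with 14.2, 25.2, 21.5 and 19.2 CPM in Bbs8+/+ against 27.9, 31.4, 41.8 and 33.2 CPM in Bbs8-/-. No knockout library was as low as any wild-type library, a rise of 0.75 on the log2 scale (SE 0.196, edgeR FDR 0.0143). This call was lost without Bbs8+/+ replicate 1 (0.62, edgeR FDR 0.0951) and without Bbs8-/- replicate 3 (0.62, edgeR FDR 0.149). The 2 with the highest mean level, Cdhr1 and Rom1, both outer segment genes, gave 0.24 and 0.30 (edgeR FDR 0.182 and 0.247). Values in the other direction, named after they were seen, were those of Prph2, also an outer segment gene, at -0.48 (edgeR FDR 0.317), and of Impg1, a gene of the matrix around photoreceptors, with 6 to 9 counts in Bbs8+/+ and 0 to 4 in Bbs8-/- (edgeR FDR 0.197).

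Of 10 genes of the cone cascade 7 were tested and 0 were called, where 2.24% of all genes tested were called. Of the 7, 1 had an unadjusted edgeR p under 0.05, as did 13% of all genes tested. The median of the 7 was 0.35. No gene of the list that was tested by DESeq2 passed FDR 0.05 there. The summed cone level overlapped between genotypes, with 18.99 to 35.7 CPM in Bbs8+/+ and 28.2 to 41.9 CPM in Bbs8-/-. Gnat2, the cone counterpart of Gnat1, stood at 2.23 ± 1.44 and 2.96 ± 0.881 CPM (SD, n = 4 each; log2 fold change 0.36, interval -0.91 to 1.62, edgeR FDR 0.883), too few counts to set beside the fall of Gnat1. The cone genes with the highest mean, Pde6c and Gngt2, gave 0.35 and 0.24 (edgeR FDR 0.747 and 0.84), and Pde6h, Cnga3, Cngb3 and Opn1mw were at 0 in at least 1 library.

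Markers of other tissues were also read in the same libraries, where 1.1% of all genes tested were called higher and 1.14% lower. Of 22 lens genes 19 were tested and 13 were up-regulated, and their summed level was 226 to 266 CPM in Bbs8+/+ and 648 to 693 CPM in Bbs8-/-. Of the 2 most abundant lens genes, the log2 fold change was 3.68 for Crygb (edgeR FDR 4.1e-38) and -0.15 for Cryab (edgeR FDR 0.484), which is not restricted to the lens. The lens gene Gja3 was at 0 in every Bbs8-/- library and at 0 to 3 counts in Bbs8+/+. Of 8 melanocyte genes 5 were down-regulated, Tyrp1, Dct, Pmel, Mlana and Ednrb, of which several are used by the RPE too. The others, Sox10, Kit and Tyr, gave -0.05, -0.03 and 0.02 and were not called (edgeR FDR 0.878, 0.974 and 0.955). The summed level of the 8 was 13998 to 14684 CPM in Bbs8+/+ and 11609 to 12179 CPM in Bbs8-/-, and none of the 8 was at 0. Most of this sum was Dct, at a mean of 10378 CPM in Bbs8+/+ and 8736 CPM in Bbs8-/-. Of 6 Müller glia genes 1 was down-regulated, Dkk3 (198 ± 17.1 and 154 ± 10.6 CPM, edgeR FDR 0.00367). The fitted change was negative for 3 of the 6 and positive for 3. The summed level of the 6 was 1072 to 1139 CPM in Bbs8+/+ and 1026 to 1044 CPM in Bbs8-/-. Most of it was Glul, at 885 and 852 CPM, while Aqp4, Kcnj10 and Sox2 were at 0 to 7 counts. The sum therefore cannot be read as an amount of Müller glia. Of 11 RPE genes 1, Otx2, was up-regulated, and the sum was 17778 to 18818 CPM in Bbs8+/+ and 19248 to 19598 CPM in Bbs8-/-, with 0.09 for Ttr and 0.05 for Rgr, the most abundant of them (edgeR FDR 0.0689 and 0.681). The part of these differences in the fall of Gnat1 was not tested.

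**Figure D5:**
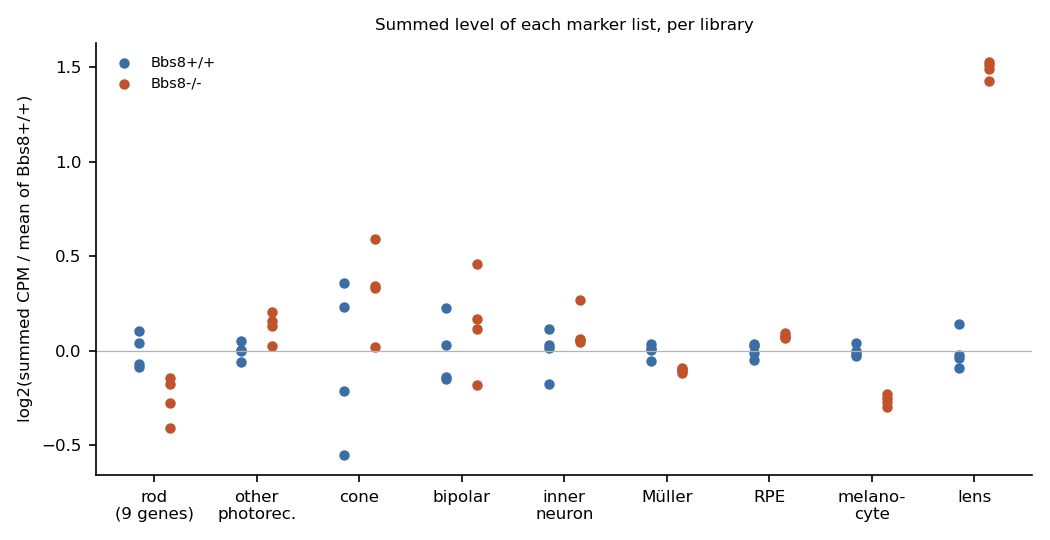
Summed level of each gene list per library, as log2 of the sum over the mean of the 4 Bbs8+/+ libraries (0 on the vertical axis), for Bbs8+/+ (blue) and Bbs8-/- (orange). The 9 rod genes lie below 0 in all Bbs8-/- libraries and the other photoreceptor genes above it, while the lens sum is 226 to 266 CPM in Bbs8+/+ and 648 to 693 CPM in Bbs8-/-.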

How the data were processed

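Libraries were prepared with the QuantSeq 3′ mRNA-Seq kit from total RNA of P11 eyecups. Per the labels and the study's methods, the authors trimmed reads with BBDuk, aligned them with STAR to mm10 and counted uniquely aligned reads per Ensembl gene with htseq-count. The deposited values are raw counts, 1 file per library, with 31053 gene rows each. The strand setting is not given in the sources used here, and no molecular identifiers were named. Symbols were matched through the GENCODE annotation of the same assembly for 30934 rows, and 119 rows had none. Reads outside annotated genes were 42.1% to 44.4% of those aligned uniquely, and they stayed out of library sizes. No columns of other samples were present in these files.

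A gene entered the test if 4 or more libraries reached 1 CPM. Genotypes were compared by edgeR 4.0.16 under R 4.3.3 (quasi-likelihood, TMM, no covariate, 2-sided), with Benjamini-Hochberg adjustment across the 13813 genes tested and a threshold of FDR 0.05. Ratios of Gnat1 to the other genes were compared by exact permutation tests, and sums and shares were described without a test. The members and the gene lists were chosen with earlier results of these data known. Genes were named if they were members, other rod pathway genes, called or most abundant in another list, or among the 5 most correlated with Gnat1 or the summed members. Some others were named to show the limits of a list. Of the lens genes called, only the most abundant is named. Some listed genes are not reported here. Per the methods each animal was a replicate. Titles share replicate numbers between genotypes. Deviations of same-numbered libraries correlated by -0.0560 to 0.0190 over 6628 genes, so the numbers were not taken to pair animals, and the fit with that block was run as 1 of the alternatives. Further ones used RLE size factors, totals alone, filterByExpr or no filter, DESeq2 1.42.0, FDR 0.01, 2 instead of 0.5 added counts, thinning to the smallest total, removal of Gm42418 and mitochondrial genes, and leaving out each library. The procedure was tested on simulated counts. Figures were drawn with matplotlib 3.10.9.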

Additional observations from a re-analysis of the deposited data

Results flagged for a closer look

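In 6 of 54 groups of 4 libraries, checked over the 9 rod genes and 16 other rod pathway genes plus the summed level and the Gnat1 share, the highest or lowest library stood apart from the other 3 by more than Dixon's criterion of 0.829 allows. Chance flags about 1 in 20 groups, which is 2.7 of 54. Pde6a was low in Bbs8-/- replicate 4, at 14.97 CPM with the nearest library at 20.05 CPM. Sag was high in Bbs8+/+ replicate 4, at 150.7 CPM with the nearest at 131.1 CPM. Guca1a was high in Bbs8-/- replicate 4, at 4.209 CPM against 1.046 CPM, and Guca1b in Bbs8-/- replicate 2, at 4.184 CPM against 0.4677 CPM, both on fewer than 10 counts. Unc119 was high in Bbs8+/+ replicate 3, at 97.77 CPM against 82.17 CPM, and low in Bbs8-/- replicate 3, at 98.76 CPM against 114.5 CPM. The Unc119 call held without either of these libraries.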

How the results depend on the processing

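Gnat1 kept its direction and its call in all 16 alternatives, with log2 fold changes of -0.96 to -0.69 and FDR of 0.000159 to 0.025. No scaling moved the median of all genes by 0.1. Pde6b, Cnga1 and Cngb1 kept their direction and stayed uncalled in all 16. The genes called higher and lower in Bbs8-/- numbered 152 and 157, 114 to 172 and 105 to 150 without single libraries, and 92 and 81 at FDR 0.01. Thinning to the smallest total turned the uncalled changes of Gngt1 to 0.1145 and Pde6a to 0.0331. Without single libraries the uncalled changes ranged from -0.19 to 0.0301 for Pde6a, -0.092 to 0.20 for Pde6g and -0.13 to 0.0922 for Rcvrn (positive for Rcvrn also at 0.0328), and Sag ranged from -0.41 to -0.20, called without Bbs8-/- replicate 2 or 3. Relative to Gnat1, the 5 called ratios lost their call under thinning (Pde6b -0.68, Pde6g -0.86, Cnga1 -0.38, Cngb1 -0.79, Rcvrn -0.70). With the replicate block they were also lost (-0.70, -0.92, -0.60, -0.97 and -0.82 in the same order, adjusted exact p = 0.2), where the smallest exact p that 4 pairs allow is 0.125, and same-numbered libraries were not shown to be paired. Without single libraries they ranged from -0.82 to -0.52 (Pde6b), -1.12 to -0.66 (Pde6g), -0.71 to -0.46 (Cnga1), -1.10 to -0.86 (Cngb1) and -0.95 to -0.67 (Rcvrn), and the ratio to Sag from -0.66 to -0.31. The block changed no call of a rod gene. Adding 2 counts in place of 0.5 changed no call of a ratio. The difference in summed level (-64.2 to -41.8 CPM) and in Gnat1 share (-5.46 to -3.24 percentage points) moved by less than 1 SD throughout. The causes were not tested. Of the other called genes, Unc119 lost its call in 6 of 16 alternatives, Nr2e3 in 3, Thy1 and Elovl7 in 10, Notch3 and Col4a1 in 7, Me1 in 5, Nrk in 1 and Oxct1, Otx2, Dkk3 and Ttc8 in 0. Counts of 12 to 62 in Gngt1, Cnga1, Cngb1, Pde6a and Rcvrn leave intervals that include changes of 0.2 in either direction on the log2 scale.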

Other observations

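Genes of other retinal cells were measured in the same libraries as the rod genes. Of 15 genes of inner retinal neurons 12 were tested, and 1, Thy1, a surface protein of ganglion cells and other neurons, was up-regulated. Of all genes tested, 1.1% were called higher. Thy1 stood at 15.5, 15.4, 19.6 and 9.79 CPM in Bbs8+/+ and at 26.7, 27.7, 23.9 and 22.9 CPM in Bbs8-/-, a log2 fold change of 0.76 (edgeR FDR 0.0455). Its call was lost in 10 of 16 alternatives. The summed level of the 15 genes overlapped between genotypes, at 188 to 230 CPM in Bbs8+/+ and 219 to 256 CPM in Bbs8-/-. The most abundant of them, Rbpms and Stmn2, gave -0.14 and 0.45 and did not pass the threshold (edgeR FDR 0.649 and 0.299). Of 9 bipolar cell genes only 4 could be tested and 0 were called by edgeR, where 2.24% of all genes tested were called. Of the 4, 1 had an unadjusted edgeR p under 0.05, as did 13% of all genes tested. The sum of the 9 was 48.8 to 63.3 CPM in Bbs8+/+ and 47.7 to 74.4 CPM in Bbs8-/-. Prkca and Isl1, the most abundant, gave 0.22 and 0.21 (edgeR FDR 0.588 and 0.931). Grm6, the glutamate receptor that marks ON bipolar cells, was at 1 to 4 counts in the Bbs8+/+ libraries and at 0 in 3 of 4 Bbs8-/- libraries, while Cabp5, another bipolar gene, was at 0 to 1 counts in Bbs8+/+ and at 1 to 11 in Bbs8-/-. Both were too low to be tested and were named after their values were seen.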
